A study of Mus musculus with 5 samples.

Results

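The Fc gamma receptors are the proteins through which leukocytes bind the constant part of IgG antibodies. Their genes were followed as the rows of the deposited matrices named Fcgr1, Fcgr2b, Fcgr3, Fcgr4 and Fcer1g, which are 5 of 31053 annotated genes. In the mouse, Fcgr1 encodes the high-affinity activating receptor, and Fcgr3 and Fcgr4 encode lower-affinity activating receptors. All of these depend on Fcer1g, a small adaptor whose ITAM (a tyrosine motif that kinases phosphorylate) recruits Syk, and Fcer1g also serves other receptors of mast cells, NK cells and myeloid cells. Fcgr2b encodes the inhibitory receptor, whose own ITIM recruits the lipid phosphatase encoded by Inpp5d, and it is the Fc gamma receptor of B cells. Macrophages are known to carry activating and inhibitory members side by side.

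Ctla4 and Pdcd1 encode the checkpoint receptors CTLA-4 and PD-1, which restrain T cells. Hearts were compared between mice labelled Ctla4+/+Pdcd1-/- (the control, 4 mice) and mice labelled Ctla4+/-Pdcd1-/- (10 mice, a model of myocarditis under immune checkpoint inhibition, called the disease group here). Both groups thus lack Pdcd1 by label, and the groups differ by 1 copy of Ctla4. Ages, sexes and strain were not given in the sources used here. Hearts were pooled, digested, sorted for live nucleated cells (DRAQ5+DAPI-) and put into 5 libraries of 10x 5-prime single-cell RNA-seq, with control replicates 1 and 2 and disease replicates 3, 4 and 5, so that the libraries, not the mice, are the replicates and p-values measure the spread between pools, which may be technical. The genotype labels of replicates 2, 4 and 5 read Pdcd2-/-, Pdcd2-/- and Pdcd3-/-, whereas the series design gives Pdcd1-/- for all, and the design was followed.

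After filtering, 5340 to 9168 barcodes per library were kept, with medians of 3317 to 4480 unique molecular identifiers (UMIs, each standing for 1 captured transcript), and any pair of libraries shared 86 to 161 barcode sequences (1.33 to 1.90% of the smaller library). The filter on UMIs, genes and mitochondrial UMIs removed 32.5% of the deposited barcodes of disease replicate 3 and 12.4 to 21.4% of those of the other libraries. UMIs of the targeted Pdcd1 were present in T cell barcodes of all 5 libraries, at 75.5 to 1049.8 CPM (UMI counts scaled to a total of 1000000 in a gate and library), and those of Ctla4 at 83.6 to 649 CPM; the deleted segments are not given in the sources used here, so neither gene checks the labels. Some libraries differed within their group. From here on, 5 values in a row follow the replicates 1 to 5, and 2 values set against 3 are the controls against the disease libraries. T cell barcodes made up 6.20 and 1.59% of the kept barcodes against 2.21, 23.7 and 7.64%, so that control replicate 1 lay above disease replicate 3. For the genes that single libraries moved most, values without them are given beside the result.

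Cells were assigned by gates, which are minimum UMI counts of marker genes that exclude the 5 receptor genes. A barcode was used if it met exactly 1 of 9 gates, as 32309 of 35901 kept barcodes did. The macrophage gate (C1qa, C1qb, C1qc) held 3958 barcodes, 453 to 1215 per library. The monocyte gate held 119 (11 to 54), the neutrophil gate 181 (18 to 65), the NK gate 97 (7 to 38), the B gate 1119 (117 to 396) and the endothelial gate 13514 (2078 to 3236). The 3 complement genes summed to 16104 to 23246 CPM in macrophage barcodes and to 9.67 to 76.4 in monocyte barcodes, a separation that the gate rules fixed. Lyz2 and Csf1r, myeloid genes that the macrophage rule did not use, stood at 15504 and 866 CPM in the pooled macrophage barcodes. In the pooled monocyte barcodes, whose rule used both, they stood at 19309 and 671, so they do not separate these 2 classes. The fibroblast gate served as a class that should lack the receptors. Levels are CPM of a gate in 1 library, and intervals on them cover counting error only.

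Of the genes, 4 lie within a stretch of mouse chromosome 1 and Fcgr1 lies apart on chromosome 3 (GRCm38.p6). Fcgr2b spans chr1:170960558-170976071 on the minus strand, Fcgr4 chr1:171018926-171029761 on the plus strand, Fcgr3 chr1:171051169-171065915 and Fcer1g chr1:171229572-171234349, both on the minus strand. Fcgr1 spans chr3:96282909-96293969 on the minus strand. The transcripts of Fcgr2b and Fcgr3 share an identical run of 129 bases, against 9 to 14 bases for every other pair of the 5 genes, so reads within that run cannot be told apart, and how they were counted is not given in the sources used here. The UMIs nevertheless separated the genes: in B barcodes Fcgr2b stood at 14.1 to 21.5% of its macrophage level and Fcgr3 at 0.135 to 1.58%, while in neutrophil barcodes Fcgr3 averaged 476 ± 149 CPM (SD, n = 5 libraries) and Fcgr2b 14.6 ± 14.0.

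Because Fcgr1 and Fcgr4 were lower in resident than in other macrophages, while Fcgr3 had the opposite sign (a call lost when either of 2 libraries was left out) and Fcgr2b did not pass, as described further on, the 200 bases before the RefSeq start sites of these 4 receptor genes are shown (GRCm38.p6, 5′ to 3′ on the strand of the gene). Capitals mark TTCNNNGAA, the palindrome that STAT proteins bind, and AGGAAG or its reverse complement CTTCCT, a core of the sites that the myeloid factor PU.1 and other ETS proteins bind.
Fcgr1 (chr3:96293970-96294169): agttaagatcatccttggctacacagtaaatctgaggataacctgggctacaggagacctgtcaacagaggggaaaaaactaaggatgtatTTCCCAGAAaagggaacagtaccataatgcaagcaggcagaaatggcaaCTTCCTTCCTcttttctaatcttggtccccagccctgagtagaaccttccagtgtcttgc
Fcgr4 (chr1:171018726-171018925): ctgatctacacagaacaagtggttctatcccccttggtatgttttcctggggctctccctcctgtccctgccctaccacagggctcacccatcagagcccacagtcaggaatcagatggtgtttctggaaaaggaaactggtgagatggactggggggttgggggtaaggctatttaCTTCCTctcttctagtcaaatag
Fcgr3 (chr1:171059404-171059603): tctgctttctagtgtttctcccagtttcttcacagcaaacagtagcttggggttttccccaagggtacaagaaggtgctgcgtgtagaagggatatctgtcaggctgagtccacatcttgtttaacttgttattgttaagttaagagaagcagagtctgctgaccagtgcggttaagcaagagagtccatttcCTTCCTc
Fcgr2b (chr1:170976072-170976271): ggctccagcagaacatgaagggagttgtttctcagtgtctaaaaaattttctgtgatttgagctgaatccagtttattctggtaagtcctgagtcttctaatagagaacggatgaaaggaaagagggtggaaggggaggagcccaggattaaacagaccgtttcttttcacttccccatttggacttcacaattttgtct
The Fcgr1 window holds TTCNNNGAA at 109 to 101 bases before the start, as do 5.62% of 27025 RefSeq promoter windows of that length, and overlapping copies of CTTCCT at 60 to 55 and 56 to 51 bases before it. The Fcgr4 window holds CTTCCT at 23 to 18 bases before the start, the Fcgr3 window at 7 to 2 bases (for 1 of its 2 listed starts, which lies inside the gene's span), and the Fcer1g window holds AGGAAG at 44 to 39 bases. These letters occur on either strand in 24.5% of the windows and not in that of Fcgr2b. A match is a description of these letters and not of binding.

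In the heart, each gene had its own spread over cell types. Macrophage barcodes held most of the UMIs of every gene: 70.2% for Fcgr1, 76.9% for Fcgr3, 61.3% for Fcgr4, 75.9% for Fcgr2b and 67.7% for Fcer1g. Barcodes that met several gates held a further 17.0 to 34.9% and were left out here. Among the activating receptors Fcgr1 was the most restricted, at 221 ± 81.1 CPM in macrophage barcodes (mean ± SD, n = 5 libraries) and 78.7 ± 59.7 in monocyte barcodes, and at 0 to 18.4 in every library of the neutrophil, NK, B and endothelial gates. The macrophage and monocyte ranges of Fcgr1 overlapped, although the macrophage value was the higher in 5 of 5 libraries.

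Fcgr3 averaged 1126 ± 145 CPM in macrophages, 476 ± 149 in neutrophils and 391 ± 110 in monocytes (n = 5 libraries each). Every macrophage value lay above every neutrophil value, and the neutrophil and monocyte ranges overlapped. In neutrophils the 5 libraries gave 387, 372, 732, 406 and 481 CPM. The gene is the Fc gamma receptor through which mouse NK cells recognise antibody-coated targets, yet the NK gate held only 13 Fcgr3 UMIs in 97 barcodes, with 0 to 64.8 CPM and 0 in control replicate 2 and disease replicate 3. With every barcode thinned to 500 UMIs, 2.06% of NK barcodes held an Fcgr3 UMI, against 0.349% of fibroblast, 0.814% of endothelial and 37.8% of macrophage barcodes.

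Fcgr4 averaged 254 ± 245 CPM in macrophages, 215 ± 85.2 in monocytes and 125 ± 92.5 in neutrophils, and these 3 ranges overlapped. The 5 monocyte values were 210.1, 145, 183, 174 and 361 CPM. In neutrophils they were 151, 62.0, 227 and 184, and disease replicate 5 held no UMI, which allows up to 84.9 CPM. In 4 of 5 libraries the monocyte value of Fcgr4 was above the macrophage value, disease replicate 4 being the exception. Fcgr4 thus differed more between macrophages of different libraries, from 50.3 to 653, than between the mean levels of these gates.

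Fcgr2b averaged 634 ± 74.6 CPM in macrophages, 237 ± 103 in monocytes and 105 ± 22.2 in B cells (n = 5 libraries each). The lowest macrophage value lay above the highest monocyte value, and the lowest B value lay above the highest NK value (45.7). In neutrophils, which held 5 Fcgr2b UMIs in 181 barcodes, and in NK barcodes, which held 9 in 97, the gene was at 0 in at least 1 library.

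Fcer1g showed the widest reach. It averaged 4317 ± 561 CPM in monocytes, 3827 ± 716 in NK cells, 3014 ± 728 in macrophages and 2891 ± 308 in neutrophils, and each of these ranges overlapped the next. The 5 NK values were 2816, 3422, 4429.6, 4527 and 3939 CPM, so Fcer1g stood near its macrophage level in cells that held few UMIs of any receptor gene. The NK gate also carried 2 to 14 UMIs per library of a 5-gene mast cell list, and mast cells use Fcer1g; the part of these in the NK level was not tested.

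**Figure D1:**
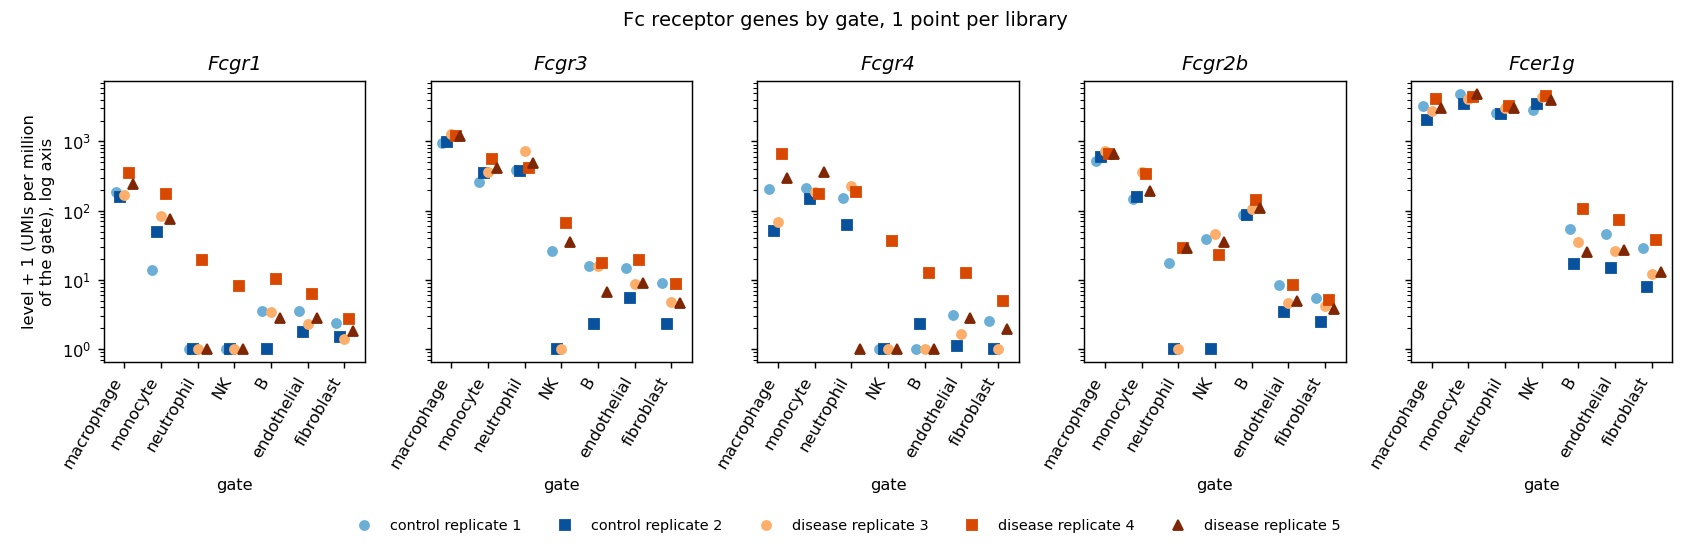
Level plus 1 (CPM, log axis) of each gene in 7 gates, with 1 point per library. Fcer1g stays between 2050 and 4866 in macrophages, monocytes, neutrophils and NK cells, Fcgr1 lies at 155 to 353 in macrophages and at 0 to 18.4 in neutrophils, and Fcgr2b lies at 85.3 to 139.7 in B cells.

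The differences between gates were tested within libraries with edgeR on UMIs summed per gate and library, keeping sums of at least 20 barcodes, over 21 pairs of gates. Macrophages exceeded neutrophils in 4 of 5 genes, where 32.3% of all genes tested differed and 25.3% were higher in macrophages: Fcgr1 by 5.51 on the log2 scale (SE 0.53), Fcgr2b by 5.55 (SE 0.43), Fcgr3 by 1.91 (SE 0.26) and Fcgr4 by 1.79 (SE 0.46, adjusted p = 0.00287). Fcer1g did not pass (0.52, SE 0.22, adjusted p = 0.0743). Against B cells all 5 genes were higher in macrophages (51.5% of all genes differed, 31.3% higher), Fcgr2b by 2.51 (SE 0.18) and the others by 5.88 to 6.75. Against endothelial cells all 5 were higher by 6.90 to 7.41, where 69.6% of all genes differed and 33.6% were higher.

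Macrophages exceeded monocytes in 4 of 5 genes, where 11.0% of all genes differed and 7.03% were higher, but the monocyte sums at that minimum came from 2 libraries. The differences were 1.39 for Fcgr1 (SE 0.28), 1.503 for Fcgr2b (SE 0.28) and 1.54 for Fcgr3 (SE 0.31), and Fcer1g did not pass (-0.15, SE 0.28, adjusted p = 0.819). Fcgr4 passed (1.55, SE 0.48, adjusted p = 0.0319), although its plain level was higher in macrophages in only 1 of 5 libraries. Its difference was 1.46 without disease replicate 5 (adjusted p = 0.0640). The difference was -1.29 without disease replicate 4, which left control replicate 2 as the only monocyte library, without a spread of its own. It was 0.56 (SE 0.38, adjusted p = 0.292) with sums of at least 10 barcodes from 5 libraries, a minimum chosen after the data were seen, where 27.2% of all genes differed.

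The NK sum came from 1 library at the minimum of 20 (disease replicate 4), so that the other gates alone supplied the spread and the fit compares that library, not NK cells in general. In it macrophages exceeded NK cells in 4 of 5 genes (10.9% of all genes differed and 7.16% were higher) and Fcer1g did not pass (0.58, SE 0.38, adjusted p = 0.415). With sums of at least 10 barcodes, which brought in 4 NK libraries, macrophages exceeded NK cells in Fcgr3 by 5.54 (SE 0.41, adjusted p = 6.43e-15), and 34.7% of all genes differed. Fcer1g did not pass (0.26, SE 0.23, adjusted p = 0.416), and its fitted sign ran opposite to the plain levels, which were higher in NK cells in 4 of 5 libraries. Against fibroblasts, where 46.1% of all genes differed, Fcgr3 was higher in NK cells by 2.43 (SE 0.74, adjusted p = 0.00613) and Fcgr2b by 2.38 (SE 0.80, adjusted p = 0.0126). Against endothelial cells, where 43.3% differed, Fcgr2b passed (1.95, SE 0.77, adjusted p = 0.0366) and Fcgr3 did not (1.56, SE 0.69, adjusted p = 0.0633). Between neutrophils and NK cells, 2 of 5 genes differed at that minimum (Fcgr3 and Fcgr4), against 28.7% of all genes. Monocytes exceeded NK cells in the 4 receptor genes (18.5% of all genes differed), and NK cells differed from B cells in Fcgr2b and Fcer1g (24.3%).

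Among the other pairs at the minimum of 20, Fcgr2b in neutrophils against B cells differed by -3.04 (SE 0.57, adjusted p = 7.68e-05), and 4 of 5 genes differed there (30.0% of all genes). B cells exceeded endothelial cells in Fcgr2b by 4.90 (SE 0.22, adjusted p = 7.61e-20) and in Fcer1g by 0.90 (SE 0.27, adjusted p = 0.00558), 2 of 5 genes, where 58.4% of all genes differed. Without disease replicate 4 the Fcer1g difference was 0.61 (adjusted p = 0.0929) and only Fcgr2b passed. Monocytes exceeded neutrophils in Fcgr1 (4.12, SE 0.75) and Fcgr2b (4.05, SE 0.59) and in no other of the 5, where 14.6% of all genes differed. All 5 differed between monocytes and B cells (19.0% of all genes) and between monocytes and endothelial cells (27.7%), and 3 of 5 between neutrophils and endothelial cells (40.3%). With the single NK library of this minimum, again without a spread of its own, 3 of 5 genes differed from monocytes (5.88% of all genes), 1 of 5 differed from neutrophils (Fcgr3, 12.5% of all genes), 2 from B cells (Fcgr2b and Fcer1g, 5.95%) and 1 from endothelial cells (Fcer1g, 13.3%). Against fibroblasts, 2 of 5 differed in that NK library (14.7% of all genes), 4 in B cells (65.2%; 2 without disease replicate 4) and 3 in endothelial cells (67.5%).

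Non-classical monocytes, which patrol vessels, are known for Fcgr4, and classical monocytes for Fcgr1. The monocyte gate held 25 barcodes with classical markers (Ly6c2, Chil3) and 60 with non-classical ones (Ace, Treml4, Adgre4, Eno3), too few per library for a test. Pooled over libraries, Fcgr1 stood at 239 CPM (95% Poisson interval 177 to 315) in the classical and 15.0 (3.102 to 44.0) in the non-classical barcodes. Fcgr2b had the same order, at 435 (350.0 to 534) and 65.2 (34.7 to 111), and so had Fcgr3, at 702 (593 to 825) and 181 (126 to 250). The Fcgr4 values ran the other way, at 162 (112 to 227) and 266 (199 to 348), with overlapping intervals. The classical barcodes numbered 0 to 16 per library, so these values compare pools and not replicates.

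Endothelial and fibroblast barcodes held low levels of all 5 genes. As background, free RNA of lysed cells can add UMIs of macrophage genes to other barcodes. Endothelial levels of the 5 genes were 1.02 to 1.46% and 0.220 to 0.681% of the macrophage level in the control libraries, against 0.505 to 0.995, 1.15 to 1.80 and 0.611 to 0.874%. The same shares were also taken over 6 other macrophage genes (C1qa, C1qb, C1qc, Cd68, Csf1r and Mrc1). They were 0.872 to 3.11 and 0.223 to 1.70% against 0.402 to 2.20, 0.973 to 2.62 and 0.542 to 2.14%. In endothelial barcodes the 5 genes thus stood inside the range of these macrophage genes in every library except control replicate 2, where the lowest (Fcgr4, 1 UMI) lay just under it. Cd68 set the top of that range in every library. The C1q genes are the macrophage gate's own markers, and the rule of exactly 1 gate keeps them low in endothelial barcodes. C1qa, C1qb, C1qc and Csf1r alone reached at most 1.16, 0.352, 0.624, 1.26 and 0.778%. The highest of the 5 genes lay above these values in every library, and the lowest lay below them. Mrc1 stood at 1.97, 0.440, 0.891, 2.04 and 1.25%. In fibroblast barcodes the 5 genes stood at 0.763 to 0.871 and 0 to 0.339% against 0 to 0.437, 0.479 to 0.911 and 0.307 to 0.427%. The other macrophage genes, Cd68 again the highest, stood there at 0.483 to 3.02 and 0.159 to 3.27% against 0.235 to 2.34, 0.411 to 2.76 and 0.230 to 2.68%. Below that range lay Fcgr4 in control replicate 2 and disease replicate 3, with no UMI in either, and Fcgr3 in control replicate 2 (0.136%). Fcgr2b, which some liver vessels are known to carry, stood at 2.44 to 7.51 CPM in heart endothelium. Fcgr2b in B barcodes (14.1 to 21.5%) and Fcer1g in NK barcodes (86.8 to 167%) lay far above these shares. Fcer1g in B barcodes did not, at 1.63 and 0.781% against 1.26, 2.60 and 0.810%. These values lay inside the endothelial range of the 6 macrophage genes in each library. In NK barcodes Fcgr2b reached 0 to 7.16% and Fcgr3 0 to 5.37%, from 0 to 3 and 0 to 9 UMIs per library.

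**Figure D2:**
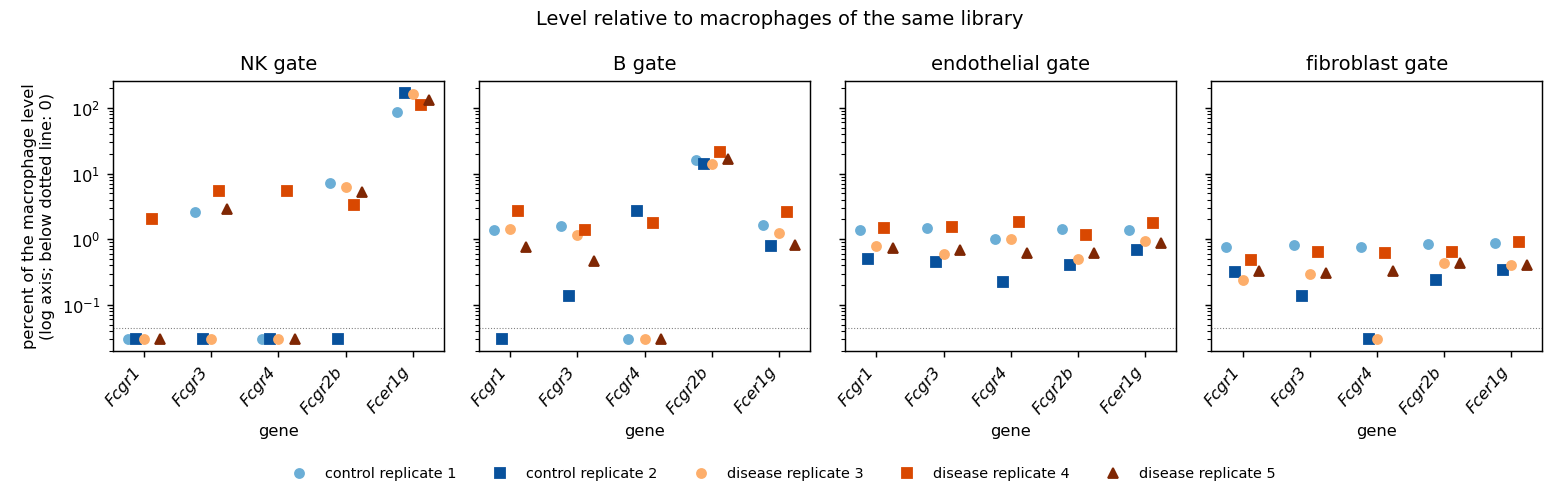
Level of each gene as a percent of its macrophage level in the same library (log axis, zeros drawn below the dotted line), for the NK, B, endothelial and fibroblast gates. Fcer1g in NK barcodes (86.8 to 167%) and Fcgr2b in B barcodes (14.1 to 21.5%) stand above the other points.

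The comparison of the disease group with the control asks whether loss of 1 Ctla4 copy goes with other receptor levels in the same cell type. In macrophages all 5 genes had higher group means in the disease group, and none passed the test across all genes. Fcgr4 stood at 206 and 50.3 CPM against 67.5, 653 and 295. Disease replicate 4 was the highest and control replicate 2 the lowest, and the groups overlapped, because control replicate 1 lay above disease replicate 3. The fitted difference was 1.497 on the log2 scale (SE 0.99, edgeR adjusted p = 0.451). It was 2.96 without control replicate 1, 0.81 without control replicate 2, 1.95 without disease replicate 3, 0.48 without disease replicate 4 and 1.61 without disease replicate 5. When every gene with at least 1 count entered the fit, the SE fell to 0.43 and the adjusted p was 0.0138.

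Fcgr1 stood at 184 and 155 CPM against 170.0, 353 and 245, with a difference of 0.70 (SE 0.36, adjusted p = 0.361). The groups overlapped at disease replicate 3, and leaving out disease replicate 4 gave 0.30, leaving out disease replicate 3 gave 0.91. Fcgr3 stood at 958 and 985 against 1281, 1206 and 1202, so that the groups did not overlap. Its difference of 0.43 (SE 0.18) had an unadjusted p of 0.0470 and an adjusted p of 0.269.

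Fcgr2b, the inhibitory receptor, also had all disease values above both controls, with 529 and 604 CPM against 731, 649.8 and 657 (difference 0.35, SE 0.17, adjusted p = 0.343). When macrophage barcodes that met another gate as well were added, which gave 486 to 1882 barcodes per library, its values overlapped (420.3 and 575 against 642, 526 and 579.5), a set chosen after the data were seen. Fcer1g stood at 3246 and 2049.9 against 2735, 4042 and 2995 (0.39, SE 0.32, adjusted p = 0.542), and the groups overlapped. The difference in Fcer1g was 0.12 without disease replicate 4, 0.05 without control replicate 2 and 0.83 without control replicate 1. Mast cell markers, 5 genes summed, stood in the same macrophage barcodes at 2.89 and 0 CPM against 0, 67.9 and 0.769, highest in the library with the highest Fcer1g. The 10 monocyte gate markers summed to 153 and 118 CPM against 165, 303 and 262, and the 5 dendritic gate markers to 8.06 and 6.07 against 11.2, 24.0 and 12.3, both without overlap. The macrophage gate's own 3 markers did not overlap either, at 17127 and 16104 against 19491, 23246 and 20063 CPM. The part of any of these markers in the receptor differences was not tested. In all, edgeR called 0 of 5 genes (DESeq2 also 0), 1 had an unadjusted p under 0.05, and 7.19% of 10679 genes tested were called, 7 of them higher (0.0655%) and 761 lower (7.13%) in the disease group. All 5 fitted differences were above 0, against 52.1% of all genes, and 2 of 5 were higher in the disease group without overlap, against 17.6% of all genes.

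**Figure D3:**
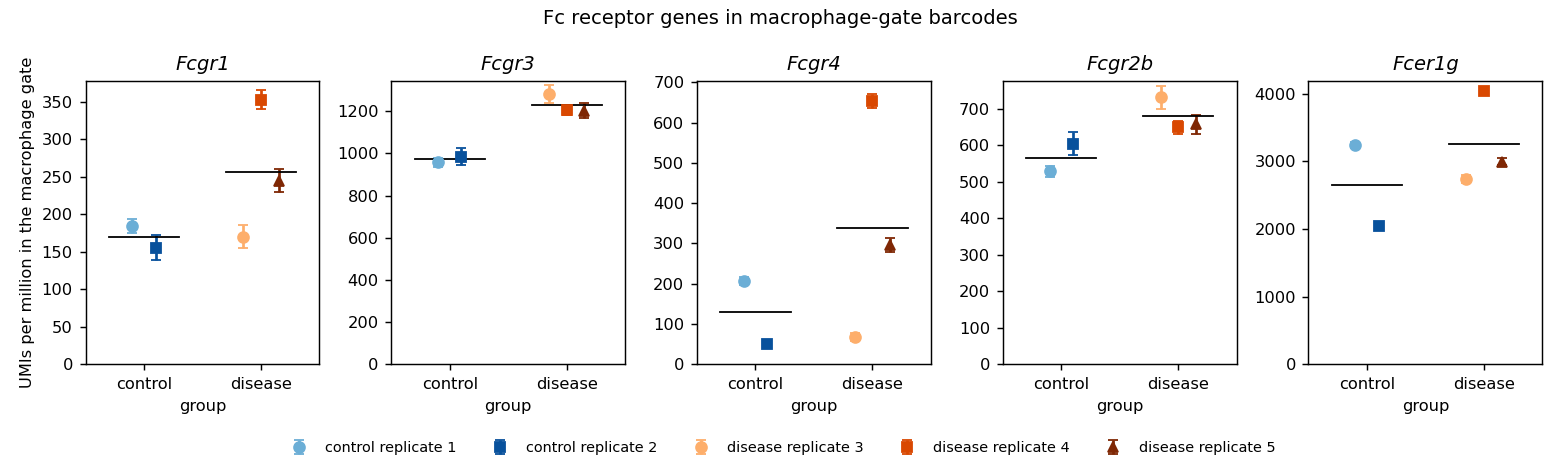
CPM of each gene in macrophage barcodes of the 5 libraries; bars are 95% Poisson intervals, which cover counting error only, and black lines are group means. Fcgr2b and Fcgr3 do not overlap between groups, and Fcgr4 runs from 50.3 to 653 with control replicate 1 above disease replicate 3.

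Thinned to 500 UMIs per barcode, the share of macrophages with an Fcgr4 UMI was 7.16 and 2.65% against 1.79, 19.0 and 7.95%, and 0.123% of fibroblast barcodes held one. Unthinned macrophage shares were 37.4, 15.9, 20.1, 58.1 and 34.3%. The share of macrophages with an Fcer1g UMI was 57.1% on average in the controls and 67.2% in the disease group, and that of Fcgr2b 20.8 and 25.5%, each with an exact two-sided permutation p of 0.1, the smallest that 10 splits of 5 libraries allow (0.333 adjusted over 10 such tests). The share of monocytes with an Fcgr4 UMI had the same exact permutation p of 0.1 in the other direction, at 17.5% on average in controls and 9.82% in disease, from 1 to 5 barcodes a library. That difference of -7.71 points turned to 9.15 without thinning. In macrophages the 3 activating genes together gave 2.55 and 1.97 UMIs per Fcgr2b UMI against 2.08, 3.40 and 2.65 (exact permutation p = 0.4). For Fcgr4 alone the ratio was 0.389 and 0.0833 against 0.0923, 1.01 and 0.449 (exact permutation p = 0.5). Adjusted over 4 such ratios, both exact permutation p were 0.7. Both macrophage ratios overlapped between groups, and their highest value was in disease replicate 4. In monocytes the ratio of the 3 activating genes was 3.36 and 3.5 against 1.77, 2.66 and 4.5 (exact permutation p = 0.7). That of Fcgr4 alone was 1.45 and 0.938 against 0.513, 0.510 and 1.9 (exact permutation p = 0.6). The monocyte groups overlapped too, with mean log2 differences of -0.31 and -0.56.

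In B cells, Fcgr2b stood at 85.9 and 85.3 CPM against 103, 139.7 and 108. All disease values lay above both controls, as for 19.3% of the 5119 genes tested, and the difference of 0.56 (SE 0.22) did not pass (adjusted p = 0.185). Fcer1g, the other gene that could be tested there, was not called either (0.93, SE 0.74, adjusted p = 0.494), so that edgeR called neither, 1 had an unadjusted p under 0.05 (Fcgr2b, 0.0404), and 9.55% of all genes were called. In endothelial cells 0 of 5 genes were called, against 12.1% of all genes, and none had an unadjusted p under 0.05.

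Monocytes and neutrophils had fewer than 20 barcodes in some libraries and were tested with the minimum of 10. In monocytes Fcgr2b stood at 144 and 155 CPM against 357, 340.5 and 190.1, without overlap, a difference of 1.00 (SE 0.39, adjusted p = 0.243). Fcgr3 stood at 263 and 348 against 366, 559 and 418 (0.54, SE 0.32, adjusted p = 0.499), also without overlap. In monocytes 14.5% of all genes tested had every disease value above both controls, and 3.39% were called. Of the 4 receptor and adaptor genes that could be tested there edgeR called 0, and 1 had an unadjusted p under 0.05 (Fcgr2b). Fcgr1, too low for the test, stood at 13.1 and 48.3 against 82.4, 174 and 76.0, from 1 to 50 UMIs a library. The gate held 0 to 16 classical barcodes a library, the subset with more Fcgr1, Fcgr2b and Fcgr3 in the pooled values above, and the part of this mix was not tested. Fcgr4 in monocytes was not called (0.32, SE 0.45, adjusted p = 0.826). In neutrophils Fcgr3 (0.39, SE 0.37), Fcgr4 (0.49, SE 0.78) and Fcer1g (0.20, SE 0.22) were not called and none had an unadjusted p under 0.05, where 1.93% of all genes were called. The Fcgr3 and Fcer1g values of neutrophils were all higher in the disease libraries, as for 13.2% of all genes. In NK barcodes the 3 disease values of Fcer1g given above lay above both controls. Over the 4 libraries with at least 10 NK barcodes, a set chosen after the data were seen that leaves out disease replicate 3 (7 barcodes), the difference was 0.31 (SE 0.27, unadjusted p = 0.282, edgeR adjusted p = 0.675). There 21.6% of all genes tested were higher in the disease libraries without overlap and 9.58% were called. The 4 receptor genes were too low in NK barcodes for that test.

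The disease difference of Fcgr4 was then compared between cell types. The fitted value in macrophages lay above that in neutrophils by 2.22 (SE 0.69, unadjusted p = 0.00125), which did not pass over all genes (adjusted p = 0.389). Disease replicate 3 had too few neutrophils for that fit, and neutrophils of disease replicate 5 held no Fcgr4 UMI. The macrophage value lay above that in monocytes by 0.93 (SE 0.50, adjusted p = 1). For the macrophage and neutrophil pair 0 of 5 genes were called by edgeR, against 0.0763% of all genes, and 1 had an unadjusted p under 0.05. For the endothelial and monocyte pairs 0 of 5 were called with none under 0.05 unadjusted, against 0.00802 and 0.0645% of all genes.

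Within macrophages, the receptors split by subset. Barcodes with at least 2 UMIs of the resident markers Lyve1, Timd4, Folr2 and Cd163 made up 52.7 to 73.3% of the gate per library, and those with none 19.1 to 39.1%. Fcgr4 was lower in resident macrophages of every library, at 113, 34.4, 48.7, 484 and 180.2 CPM against 378, 116, 110.4, 879.7 and 503 in the others (log2 difference -1.52, SE 0.12, edgeR adjusted p = 4.66e-08). Fcgr1 was lower in resident macrophages in 5 of 5 libraries, by 0.49 in the fit (SE 0.11, adjusted p = 0.00245). Its 5 values were 177, 144, 168, 298 and 219 against 191, 202, 169.9, 423 and 318.

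Fcer1g was lower in resident macrophages by 0.37 (SE 0.10, adjusted p = 0.00750), in 4 of 5 libraries, control replicate 2 being the exception at 2091 against 1925. Fcgr3 had the opposite sign. It was higher in resident macrophages of all 5 libraries, at 1088, 1032, 1342, 1379 and 1259 against 725, 794, 1013, 980.8 and 999.7 (0.29, SE 0.09, adjusted p = 0.0207). Fcgr2b was higher in 5 of 5 as well, and its difference of 0.24 (SE 0.10) did not pass (adjusted p = 0.0822). In all 4 of 5 genes were called, against 25.1% of 9301 genes tested, 11.9% higher and 13.3% lower in resident macrophages. With each library left out in turn, Fcgr1 and Fcgr4 passed every time. Fcgr3 did not pass without control replicate 1 (0.23, adjusted p = 0.108) or without disease replicate 4 (0.28, adjusted p = 0.0759). Fcer1g did not pass without control replicate 1 (-0.29, adjusted p = 0.0501) or without disease replicate 5 (-0.33, adjusted p = 0.0537), and Fcgr2b passed without disease replicate 5 (0.34, adjusted p = 0.0320) and when every gene with at least 1 count was tested (0.30, adjusted p = 0.0126). Of 5 cardiomyocyte markers, Tnnt2 (-0.54, SE 0.19) and Actc1 (-0.61, SE 0.19) were lower in resident macrophages too, and their part in these differences was not tested.

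**Figure D4:**
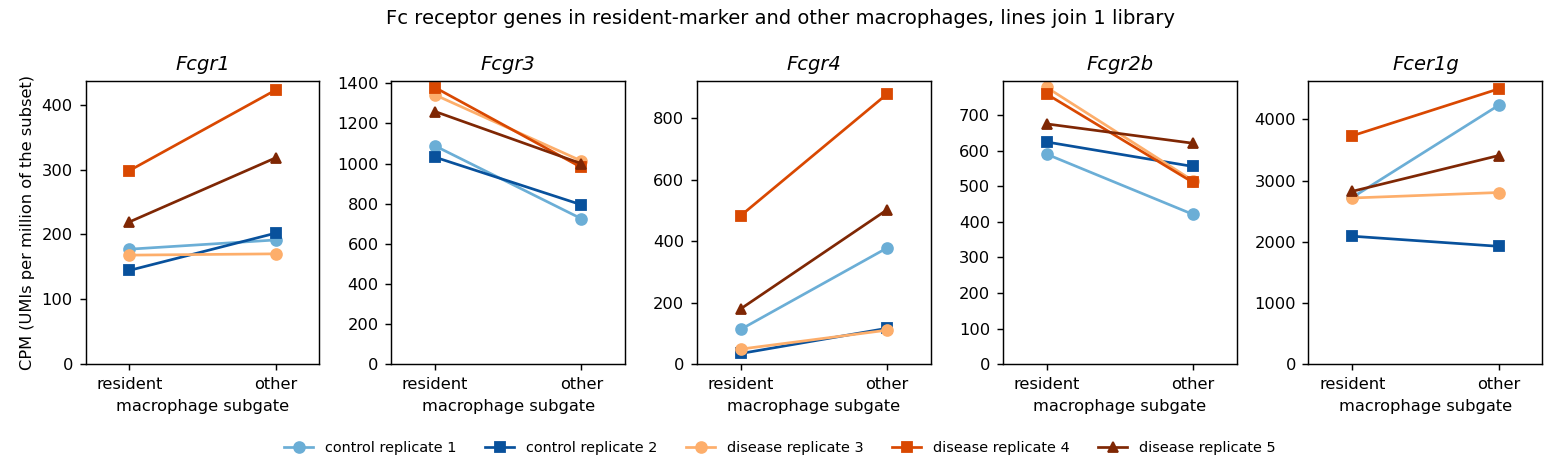
CPM of each gene in resident-marker and other macrophages, with lines joining the values of 1 library. Fcgr4 and Fcgr1 lie lower and Fcgr3 and Fcgr2b higher in resident macrophages of every library.

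Disease and control were also compared within each subset. Fcgr4 differed between disease and control by 1.73 (SE 0.93, adjusted p = 0.348) in resident and by 1.13 (SE 0.81, adjusted p = 0.4996) in other macrophages, and 0 of 5 genes were called in either (8.07 and 4.99% of all genes were). None had an unadjusted p under 0.05 among resident macrophages, and 1 did among the others (Fcgr3, 0.53, SE 0.19, adjusted p = 0.191).

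Macrophages were also divided by a UMI of Cxcl9, a chemokine gene induced by interferon-gamma, whose level in the gate was 269 and 9.97 CPM against 68.9, 1785 and 694. The order of the libraries by Cxcl9 was the order by Fcgr4. Within each library, Fcgr4 was higher in barcodes with a Cxcl9 UMI, at 514, 229, 312, 918 and 768 CPM against 138, 45.1, 55.0, 259.9 and 80.2. Barcodes with Cxcl9 numbered 134, 9, 14, 537 and 121, and they were deeper, with median UMIs of 6041 to 10121 against 4589 to 5925; the part of depth in the difference was not tested. The Fcgr4 values without Cxcl9 still overlapped between groups, and control replicate 1 lay above disease replicates 3 and 5.

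Fcgr1 followed Fcgr4 in 4 of 5 libraries (261, 153, 238, 431 and 365 with Cxcl9 against 166, 155, 167, 237 and 189.8 without). Fcgr2b did not: with Cxcl9 it was lower in control replicates 1 and 2 and disease replicate 4 and higher in the other two, at 485, 397, 773, 594 and 679 against 538, 609.7, 729, 734 and 647. Fcgr3 with Cxcl9 was lower in 4 of 5 libraries, by the most in control replicate 2 (641 against 995 CPM). Fcer1g with Cxcl9 stood at 4445, 2106, 2692, 4568 and 3649.6 against 2979.7, 2048, 2738, 3259 and 2698, higher in all libraries but disease replicate 3.

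**Figure D5:**
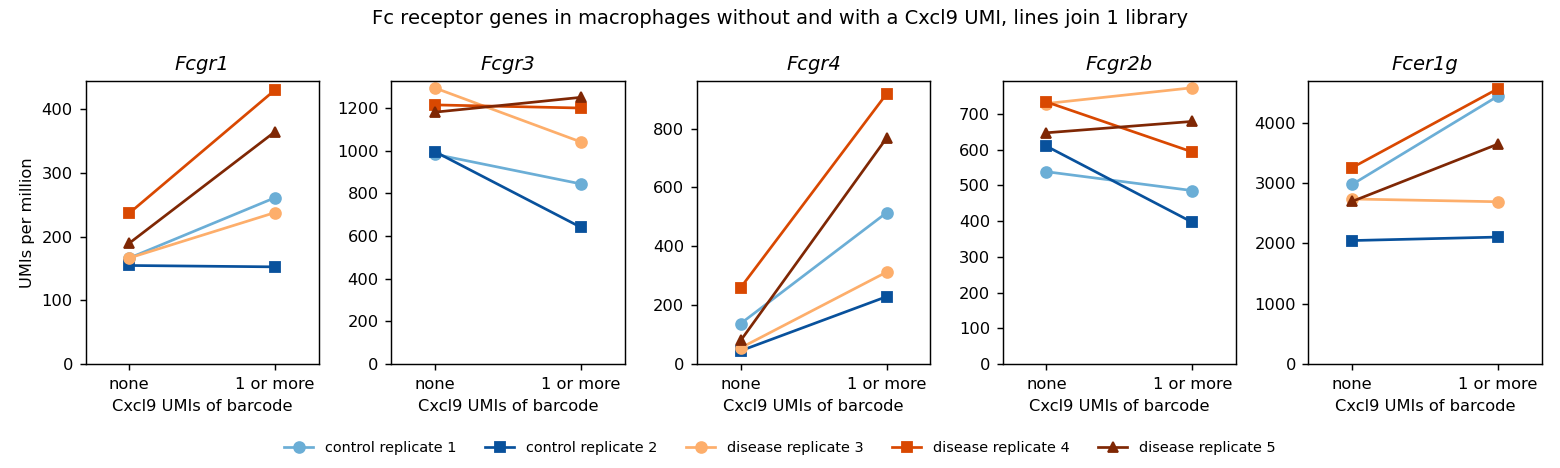
CPM of each gene in macrophages without and with a Cxcl9 UMI, with lines joining the values of 1 library. The Fcgr4 lines rise in all 5 libraries, to 229 to 918 CPM, and the Fcgr2b lines do not share a direction.

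The other genes of the pathway were read from fixed lists. Of the adaptors and receptors that share the ITAM route (Tyrobp, Clec4d, Trem2 and others), 8 of 10 could be tested in macrophages, all 8 had fitted differences above 0 (52.1% of all genes) with a median of 0.59 against 0.02 over all genes, and 5 of 8 were higher without overlap (17.6% of all genes). None was called (0.0655% of all genes were called higher), and 3 had an unadjusted p under 0.05, Clec4d coming closest (0.95, SE 0.24, adjusted p = 0.0741). Of the 17 signalling genes downstream of the ITAM, none was called (7.13% of all genes were called lower and 0.0655% higher), 4 had an unadjusted p under 0.05, and the median was -0.09. Among them the protein kinase C gene Prkcd stood at -0.68 (SE 0.20, adjusted p = 0.107). Of the 12 inhibitory genes, Ptpn11, which encodes the phosphatase SHP-2, fell by 0.94 (SE 0.17, adjusted p = 0.0210), 1 of 12 beside 7.13% of all genes lower, and the list median was 0.14. Ptpn11 also fell in B cells (by 1.48, SE 0.36, adjusted p = 0.0490), 1 of 7 inhibitory genes tested where 9.55% of all genes were called, and in endothelial cells (by 0.92, SE 0.10, adjusted p = 0.00366), 1 of 12 where 12.1% were. Of the ITAM signalling genes in B cells 3 of 11 tested were called, all lower, as were 469 of the 489 genes called there (9.16% of all genes tested). The list median was -0.41, and the called genes included Plcg2 (-1.11, SE 0.21, adjusted p = 0.0216) and Prkcd (-1.49, SE 0.28, adjusted p = 0.0196).

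Between the macrophage subsets, 7 of the 17 ITAM signalling genes were lower in resident macrophages and none higher, with a median of -0.31 against 0.02 over all 9301 genes, of which 13.3% were lower and 11.9% higher; they included the Src-family genes Fgr (-2.57, SE 0.21) and Lyn (-0.40, SE 0.10). Of the 12 inhibitory genes 5 were lower, among them Ptpn6 (-0.50, SE 0.12) and Inpp5d (-0.28, SE 0.10), and the adaptor gene Dok2 was higher by 1.15 (SE 0.13). Of the other ITAM receptors 3 of 8 tested were lower, led by Clec4e (-2.71, SE 0.22). Among other Fc receptors, Fcgrt, the neonatal Fc receptor that recycles IgG, was higher in resident macrophages by 1.53 (SE 0.10, adjusted p = 4.46e-09), and Trim21, the other 1 of the 2 tested, was not called.

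The genes whose levels ran most closely with each receptor were ranked by Pearson's r of log2 levels over 22 gate and library sums of the 6 gates. These points share libraries and depth, and r is a description. Fcgr1 ran with Ms4a6d (r = 0.99) and Aif1 (0.98), Fcgr3 with Lrrc25 (0.99) and Clec4a2 (0.97), Fcgr4 with Clec12a (0.87) and Atp8b4 (0.87), Fcgr2b with Cybb (0.96) and Lgmn (0.92), and Fcer1g with Fyb (0.99) and Myo1f (0.97), followed by its fellow adaptor gene Tyrobp (0.97). Between the members, r was highest for Fcgr3 with Fcer1g (0.94) and lowest for Fcgr2b with Fcer1g (0.40) and with Fcgr4 (0.44).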

How the data were processed

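Raw UMI counts for each gene and barcode were deposited, written by Cell Ranger 3.1.0 per the file headers; chemistry was 10x 5-prime v1.1 per the labels' protocols. The submitters' processing notes name Cell Ranger 3, Seurat 3, GRCh38 and mm10 without roles, and the rule for calling cells is not given in the sources used here. Barcodes with at least 500 UMIs, 200 genes and at most 10% mitochondrial UMIs were kept. Scrublet scores (scanpy 1.11.5) removed the expected share of doublets per library (0.8% per 1000 barcodes), 2411 in all, because the automatic threshold marked 4 barcodes of control replicate 2. UMIs were summed per gate and library and tested with edgeR 4.0.16 (R 4.3.3; TMM, filterByExpr, quasi-likelihood, Benjamini-Hochberg over all genes tested, threshold 0.05), with the library as a block between gates and between macrophage subsets. DESeq2 1.42.0 was an alternative, and others were other normalization, filters, doublet rules, gate minimums and leaving out each library. Sums needed 20 barcodes. On simulated counts for the macrophage comparison (10679 genes) the fit recovered 91 and 99% of changes of 2 and 3 on the log2 scale, with 7.77% of its calls false; smaller changes, such as those of the members, were not simulated. Promoter windows and gene positions are from RefSeq on GRCm38.p6, and transcripts from GENCODE. The named genes are the 5 members and the fixed pathway lists, with for each member the genes of highest correlation. Values of 1 gene of these lists are not reported here. The members and lists were chosen with earlier results of these data known. Lists of platelet, mast cell and cardiomyocyte markers were also read: 1 platelet, 0 mast cell and 5 cardiomyocyte genes could be tested between groups in macrophages, and none of these was called. Total UMIs of a library ranged from 24991704 to 55053988.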

Additional observations from a re-analysis of the deposited data

How the results depend on the processing

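No paired analysis was possible because control and disease libraries share no replicate number. In macrophages the count of genes called between disease and control was 0 as reported and 1 (Fcgr4) when every gene with at least 1 count was tested, and 0 under the other alternatives. Over all genes the calls were 768, 1421 with every gene and 281 to 920 with 1 library left out. Between gates, leaving out disease replicate 4 moved the count of genes called from 2 to 1 for B over endothelial and from 4 to 2 for B over fibroblast. Without that library, control replicate 2 alone supplied the monocyte sum, without a spread of its own. Counts of genes called for monocyte pairs are therefore not given for that fit. The NK sum came from disease replicate 4 alone, so NK counts with 1 library left out are not given either. With sums of at least 10 barcodes, the count was 2 for neutrophil over NK and for NK over endothelial. Doubled gate minimums gave 1 for NK over B and for NK over fibroblast, against 2 as reported. The macrophage over monocyte difference ranged with 1 library left out from -0.62 to 0.39 for Fcer1g (positive without control replicate 2) and from -1.29 to 2.24 for Fcgr4 (negative without disease replicate 4). Without either of these libraries the other was the only one with a monocyte sum, so both changes of sign rest on 1 monocyte library. Resident against other macrophages gave 2 to 4 calls over the libraries left out.

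Shares at 500 UMIs per barcode, as disease minus control in percentage points, ranged with 1 library left out from -0.10 to 3.72 for Fcgr1 in macrophages (1.81 with all, -0.09 without control replicate 2 and -0.10 without disease replicate 4) and from -0.034 to 8.56 for Fcgr4 (4.67 with all, lowest without disease replicate 4). In monocytes, with 11 to 54 barcodes a library, they ranged from -2.69 to 1.85 for Fcgr1 (-0.42 with all) and from -4.66 to 13.5 for Fcgr3 (4.43 with all, lowest without control replicate 1). Fcgr1 in monocytes was 1.49 at 1000 UMIs and 10.5 unthinned, Fcgr4 went from -7.71 to 9.15 unthinned and Fcer1g from 5.05 to -3.03 unthinned. The disease minus control difference in the log2 ratio of Fcgr4 to Fcgr2b in macrophages ranged from -0.17 (without control replicate 2) to 2.06 around 0.94, and that in the log2 ratio of activating to inhibitory UMIs in monocytes from -0.66 to 0.013 (without disease replicate 3) around -0.31. Of the recomputed values, 312 for main results and 480 for single genes and all-gene counts were labelled the same. A count of genes called was the same within a fixed fold of its main value. A share or ratio difference was the same if it kept its sign, whatever its p. A single-gene difference had to keep its direction and side of the threshold. Of the rest, 14 moved and 13 reversed for main results. For single genes and all-gene counts 10 moved, 2 reversed, 8 newly passed the threshold and 8 no longer did. The cause was not tested. The monocyte subset test was not run, and the macrophage against monocyte comparison of disease effects at 20 barcodes left no residual degrees of freedom. Low barcode numbers (7 to 65 per library) limit the NK, neutrophil and monocyte gates. Levels of the scarcer receptor genes rest there on few UMIs, whereas Fcer1g rests on 97 to 1266 per library.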

Other observations

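Barcodes of the dendritic gate (Flt3, Xcr1, Clec9a, Cd209a, Siglech), 7 to 47 per library, were not part of the comparisons. Fcgr2b stood there at 126 ± 66.6 CPM (SD, n = 5 libraries) and Fcer1g at 763 ± 491, while Fcgr1 stood at 5.96 ± 5.10, Fcgr3 at 46.8 ± 19.4 and Fcgr4 at 14.5 ± 12.03. Barcodes that met several gates, which the comparisons also left out, held 34.9% of all Fcgr4 UMIs, against 17.0% of Fcgr2b and 18.5% of Fcgr3 UMIs. With the macrophage barcodes among them added, Fcgr4 stood at 188 and 49.0 CPM in the control libraries against 65.1, 648 and 330.3, and the disease difference was 1.69 (SE 1.02, edgeR adjusted p = 0.446), where without them it was 1.497.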
